A study of Mus musculus with 40 samples.

Results

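The 7 genes described here are Cdkn1a, Trp53inp1, Trp53inp2, Mdm2, Ccng1, Phlda3 and Sesn1, out of 55421 genes in the count table. They were chosen on measured values and on names. Cdkn1a and Trp53inp2 were picked because they are higher in kidney and lung regulatory T cells (Treg) than in blood, spleen and lymph node Treg, and the other 5 were added as named target genes of the same pathway. The question was whether the wider set of p53 target genes moved with Cdkn1a and Trp53inp2 or whether these 2 genes moved alone. Values of Cdkn1a and Trp53inp2 in kidney and lung Treg are therefore a description with no test, and tests are given for the other 5 genes and for comparisons that the choice did not use. Tests of these 2 genes in other Treg sources use the lymphoid libraries that chose them, so their p-values are not independent of the choice.

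CD4+ T cells of wild-type mice carrying a Foxp3-Thy1.1 reporter, all labelled as perfused with the tissue digested, were sorted into reporter-positive Treg and reporter-negative conventional cells (Tconv). The reporter marks Foxp3, the transcription factor that defines Treg. The 10 sources were 4 solid organs (kidney, lung, pancreas and liver), the intraepithelial and lamina propria lymphocytes of the gut (IEL and LPL), Peyer's patch, lymph node, spleen and blood, with 3 Treg libraries and 1 Tconv library of 2000 cells from each. Blood, spleen and lymph node Treg, 9 libraries in all, are called lymphoid Treg below and serve as the shared reference of every Treg comparison between sources. The 18 libraries of kidney, lung, pancreas, IEL, LPL and liver are called tissue Treg, and Peyer's patch is kept apart. No age, sex or further treatment is given in the sources used here, and which libraries come from the same mouse is not stated, so that errors and p-values measure the spread between these samples, which may be technical.

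Total counts per library ran from 12197980 to 28823493. Levels are CPM, counts scaled to a common library size with TMM factors. Foxp3 stood at 68.4 to 306 CPM in Treg and at 0.158 to 6.66 CPM in Tconv, so each library lay on the side of its label, and T cell marker genes took 0.521 to 0.864% of counts in Treg. The kit reads 3′ ends, so a level is not divided by gene length and levels of different genes are not compared. The noncoding gene Gm26917 took 0.176 to 4.67% of counts in Treg, with 2.23% in kidney replicate 1, 1.57% in lung replicate 1 and 3.56% in Peyer's patch replicate 1, and its part in the results was not tested. Kidney Treg replicate 1, lung Treg replicate 1 and Peyer's patch Treg replicate 1 stood apart from the other libraries of their source for several of the genes below, and list counts in kidney, lung and Peyer's patch are also given without them for the p53, early response, cell cycle and autophagy lists. In sorted bulk samples, a smaller share of expressing cells and less RNA per cell cannot be told apart.

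p53 (Trp53) is a transcription factor that is held at low protein levels by the ubiquitin ligase Mdm2. DNA damage and other stresses stabilise it, after which it binds response elements near its target genes. Some targets stop the cell cycle, some promote cell death, some support repair and metabolism, and Mdm2 itself closes a negative feedback loop. Most of this control acts on the p53 protein, which RNA counts do not measure. Cdkn1a encodes p21, an inhibitor of cyclin-dependent kinases, and is induced through p53 and also by other transcription factors. In T cells p21 is known as a brake on the expansion of stimulated cells. Trp53inp2 shares its name with the p53-induced gene Trp53inp1 and is known for its part in autophagosome formation.

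Promoter windows were searched for short motifs, and no motif was found in all of the members matched. RefSeq windows on build GRCm38.p6, from 250 bases before to 50 bases after a gene's start, were matched for 6 of the 7 genes in 8 windows. Trp53inp1 was not among the genes matched. Each window was searched on both strands for the p53 consensus decamer, of which a full p53 site holds a pair, for AP-1 (TGANTCA), the cyclic AMP element (TGACGTCA), a heat shock pair (GAANNTTC) and the E-box (CACGTG). The decamer was found in 8.36% of all 32851 windows of that length, AP-1 in 7.81%, the cyclic AMP element in 1.79%, the heat shock pair in 7.86% and the E-box in 7.15%. The 4 windows below are shown because they belong to the 2 genes that define the set and to Mdm2 and Ccng1, the targets that act back on p53. Capitals mark the p53 decamer in Cdkn1a, Mdm2 and Ccng1 and the cyclic AMP element in Trp53inp2.
Cdkn1a (chr17:29090729-29091028, plus strand): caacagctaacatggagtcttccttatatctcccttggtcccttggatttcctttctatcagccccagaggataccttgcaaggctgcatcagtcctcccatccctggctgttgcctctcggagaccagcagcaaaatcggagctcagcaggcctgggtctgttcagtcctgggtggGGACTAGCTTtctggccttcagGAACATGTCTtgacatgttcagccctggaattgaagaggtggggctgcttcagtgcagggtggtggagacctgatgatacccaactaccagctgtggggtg
Trp53inp2 (chr2:155381606-155381905, plus strand): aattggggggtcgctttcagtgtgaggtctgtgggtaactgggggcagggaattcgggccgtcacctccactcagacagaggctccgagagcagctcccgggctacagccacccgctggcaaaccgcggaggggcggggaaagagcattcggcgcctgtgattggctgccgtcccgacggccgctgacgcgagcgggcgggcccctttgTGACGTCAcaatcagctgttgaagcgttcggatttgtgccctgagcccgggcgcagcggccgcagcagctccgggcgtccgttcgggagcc
Mdm2 (chr10:117710709-117711008, minus strand): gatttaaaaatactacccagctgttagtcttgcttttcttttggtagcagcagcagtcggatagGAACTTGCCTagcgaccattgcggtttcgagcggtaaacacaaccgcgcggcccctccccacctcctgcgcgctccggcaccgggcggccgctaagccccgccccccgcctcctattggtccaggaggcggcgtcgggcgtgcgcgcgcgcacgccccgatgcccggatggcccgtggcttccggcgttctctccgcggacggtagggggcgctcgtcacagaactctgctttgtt
Ccng1 (chr11:40755237-40755536, minus strand): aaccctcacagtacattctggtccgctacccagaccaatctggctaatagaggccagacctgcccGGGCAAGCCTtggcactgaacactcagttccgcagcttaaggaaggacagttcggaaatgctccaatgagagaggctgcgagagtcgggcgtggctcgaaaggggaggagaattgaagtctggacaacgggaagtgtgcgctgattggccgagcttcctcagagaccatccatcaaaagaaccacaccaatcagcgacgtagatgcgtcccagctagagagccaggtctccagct

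The first Cdkn1a window, printed above, held 2 decamers, at -73 and -51 from the start used for that window. Mdm2 held 1 at -186 and Ccng1 held 1 at -185. In the Trp53inp2 window the search found the cyclic AMP element at -41 and none of the other motifs. A second Sesn1 window (chr10:41887189-41887488) held a decamer at -173, and its first window a heat shock pair at 12 bases after the start. None of these motifs was found in the Phlda3 window or in the second Cdkn1a window (chr17:29093519-29093818), which belongs to another start further downstream. These matches describe letters and are not evidence of binding, and sites outside the windows were not searched. On mm10 the genes lie at chr17:29090976-29100727 (Cdkn1a, ENSMUSG00000023067.14), chr2:155381059-155389850 (Trp53inp2, ENSMUSG00000038375.15), chr4:11156431-11174379 (Trp53inp1, ENSMUSG00000028211.11), chr10:117688875-117710758 (Mdm2, ENSMUSG00000020184.15), chr11:40748552-40755311 (Ccng1, ENSMUSG00000020326.7), chr10:41809935-41908424 (Sesn1, ENSMUSG00000038332.13) and chr1:135766119-135769136 (Phlda3, ENSMUSG00000041801.5). Cdkn1a overlaps an opposite-strand gene, AC167363.2, which had 381 counts over all 40 libraries, and Sesn1 overlaps the same-strand gene 9930024M15Rik, which had 1727. The strand setting of the counting is not given in the sources used here, so reads of the overlapping parts may be split between these genes.

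Cdkn1a, the brake on cyclin-dependent kinases, was high in kidney, lung, pancreas, IEL and LPL Treg and close to the lymphoid level in liver Treg. The lymphoid libraries stood at 1.77, 0.618 and 1.14 CPM in blood, at 1.18, 3.44 and 1.80 CPM in spleen, and at 0.933, 0.851 and 2.13 CPM in lymph node. Kidney Treg had 40.01, 168 and 161 CPM in replicates 1, 3 and 5. Lung Treg had 186 CPM in replicate 1 and 22.1 and 25.3 CPM in replicates 5 and 6. So every kidney and lung library exceeded every lymphoid library, while the libraries within each of these organs differed several-fold, replicate 1 being the lowest in kidney and the highest in lung. The log2 fold change was 6.38 ± 0.61 (SE) in kidney and 5.78 ± 0.60 in lung, and in lung it was 4.01 without replicates 1 of kidney and lung. These 2 differences are the ones on which the gene was chosen and carry no test.

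LPL Treg held the highest Cdkn1a levels of the 30 Treg libraries. LPL Treg had 239, 290.3 and 221 CPM and IEL Treg 152, 158 and 146 CPM. The ranges of LPL and IEL did not overlap each other, and both were more closely grouped than kidney or lung. Pancreas Treg had 31.4, 33.3 and 83.4 CPM, the highest being replicate 6. Against lymphoid Treg, Cdkn1a rose by a log2 fold change of 7.44 ± 0.62 in LPL, 6.71 ± 0.61 in IEL and 5.08 ± 0.59 in pancreas (edgeR adjusted p = 7.31e-09, 3.74e-08 and 3.39e-06). These tests share their lymphoid libraries with the comparisons that chose the gene. Liver Treg had 2.78, 4.02 and 2.05 CPM, within reach of the highest spleen library, and the log2 fold change of 1.001 ± 0.66 did not pass (edgeR adjusted p = 0.606).

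Peyer's patch Treg rested on 1 library for Cdkn1a. Replicate 1 had 32.9 CPM and replicates 2 and 3 had 4.33 and 3.55 CPM. The log2 fold change of 3.21 ± 0.60 passed with all libraries (edgeR adjusted p = 0.00179) and was 1.42 with an adjusted p of 0.309 without replicate 1. It also missed the threshold when spleen alone was the reference, at 2.69 (adjusted p = 0.157). From the highest mean to the lowest, the sources ran LPL (250.1 ± 36.1 CPM, SD, n = 3), IEL (152 ± 5.76), kidney (123 ± 71.9), lung (77.9 ± 93.9), pancreas (49.4 ± 29.5), Peyer's patch (13.6 ± 16.7), liver (2.95 ± 0.999), spleen (2.14 ± 1.17), lymph node (1.30 ± 0.713) and blood (1.18 ± 0.576). Among neighbours in this order, only LPL and IEL had ranges that did not overlap. Over all 18 tissue libraries the mean was 109 ± 92.5 CPM, against 1.54 ± 0.871 CPM in the 9 lymphoid libraries.

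Trp53inp2, the autophagy gene, was also high in the solid organs and the gut wall, but its order differed from that of Cdkn1a, with kidney and lung on top. Kidney Treg had 49.5, 79.1 and 105 CPM and lung Treg 114, 26.0 and 22.5 CPM, replicate 1 again being the lowest of kidney and the highest of lung. Pancreas Treg had 25.3, 18.9 and 45.8 CPM, LPL Treg 27.8, 27.3 and 21.0 CPM, and IEL Treg 12.2, 13.6 and 10.8 CPM. All of these exceeded the 9 lymphoid libraries, which ran from 0.106 CPM in a spleen library to 5.04 CPM in a lymph node library with a median of 1.60 CPM. The gene rose in pancreas (log2 fold change 4.18 ± 0.46), LPL (3.97 ± 0.46) and IEL (2.90 ± 0.46), with edgeR adjusted p = 9.99e-07, 6.73e-07 and 6.59e-05. As for Cdkn1a, these tests share their lymphoid libraries with the comparisons that chose the gene. In kidney and lung, where it was chosen, the log2 fold change was 5.55 ± 0.47 and 5.08 ± 0.46, the latter 3.87 without both replicates 1. In IEL the call was lost against lymph node alone, where Trp53inp2 is highest among the reference sources (log2 fold change 1.75, adjusted p = 0.0527).

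Liver and Peyer's patch stayed near the lymphoid range for Trp53inp2. Liver Treg had 5.10, 2.65 and 4.63 CPM and Peyer's patch Treg 8.25, 2.31 and 2.32 CPM, with log2 fold changes of 1.32 ± 0.49 and 1.37 ± 0.49 that did not pass (edgeR adjusted p = 0.234 and 0.134). The source means ran kidney (77.7 ± 27.6 CPM, SD, n = 3), lung (54.3 ± 52.1), pancreas (29.99 ± 14.0), LPL (25.4 ± 3.81), IEL (12.2 ± 1.37), Peyer's patch (4.29 ± 3.43), liver (4.13 ± 1.30), lymph node (3.70 ± 1.23), blood (1.28 ± 0.304) and spleen (0.947 ± 0.877). Neighbouring ranges did not overlap between LPL and IEL, IEL and Peyer's patch, and lymph node and blood, and overlapped at every other step.

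**Figure D1:**
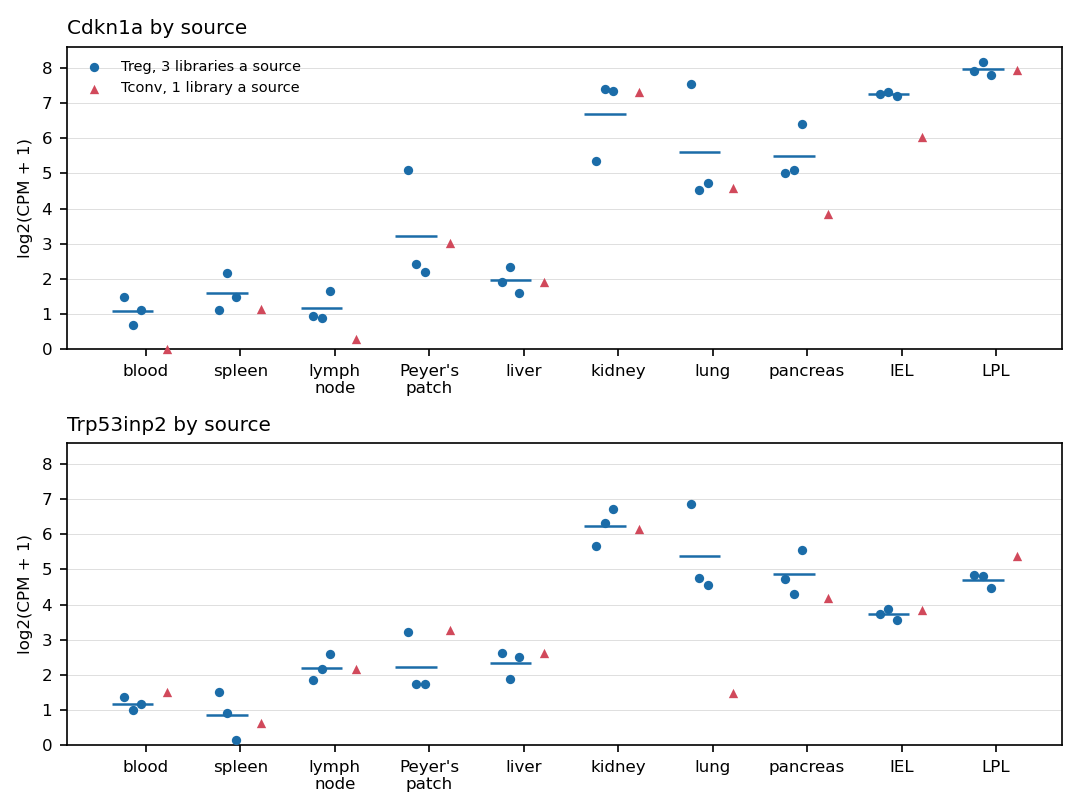
Level of Cdkn1a (top) and Trp53inp2 (bottom) as log2(CPM + 1) in each library by source, with Treg as circles, their mean as a bar and the single Tconv library of a source as a triangle. Cdkn1a is highest in LPL, Trp53inp2 in kidney and lung, and replicate 1 of lung Treg stands far above the other 2 lung Treg libraries for both genes.

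Counts of the other 5 members that passed in kidney and lung were close to the share over all genes. In kidney 0 of the 5 were higher and 1 was lower, where 16.4% of 17909 genes tested passed in either direction, 12.2% of them higher and 4.26% lower. In lung 0 of the 5 passed, where 11.5% of genes did, 8.64% higher and 2.85% lower. Leaving out replicate 1 of kidney and of lung, 2 of the 5 passed in kidney (Trp53inp1 higher and Sesn1 lower) and 1 in lung (Sesn1, lower). Without these libraries more of all genes passed in lung too. The shares above therefore do not apply to counts without them, here and in the lists below. Those counts have no share beside them and are descriptions only. In pancreas, of the other 5 members, Sesn1 alone passed and was lower, against 9.95% of genes called, 7.64% higher and 2.31% lower. In IEL Mdm2 was higher and Ccng1 and Sesn1 lower, against 21.2% of genes called. In LPL Mdm2 was higher and Ccng1, Sesn1 and Phlda3 lower, against 27.1%. Cdkn1a and Trp53inp2 also rose in pancreas, IEL and LPL, against the lymphoid libraries on which they were chosen, and are not set beside these shares. No member passed in liver, where 1.12% of genes did, and Peyer's patch, where 3.57% did, had Cdkn1a alone. The comparisons between sources share their lymphoid libraries and are not independent of each other.

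Mdm2, which ubiquitinates p53 and is itself a p53 target, passed the test in IEL and LPL and in no other source. The 9 lymphoid Treg libraries ran from 103 to 146 CPM with a median of 119.7 CPM. Kidney Treg had 111, 148 and 116 CPM and lung Treg 140.3, 112 and 66.6 CPM, of which 4 of 6 lay within the lymphoid range, 1 above and 1 below. The log2 fold change was 0.06 ± 0.20 in kidney and -0.15 ± 0.20 in lung, neither of which passed (edgeR adjusted p = 0.896 and 0.731). In the same kidney libraries Cdkn1a stood far above its lymphoid range. LPL Treg had 195, 241 and 225 CPM and IEL Treg 226, 191 and 166 CPM, all above the highest lymphoid library. Mdm2 rose by 0.90 ± 0.19 in LPL (edgeR adjusted p = 0.000998) and by 0.71 ± 0.19 in IEL (0.00933). The IEL call was lost against spleen alone (0.62, adjusted p = 0.126) and without IEL replicate 1 (0.59, 0.0839). Pancreas Treg had 189, 169 and 85.3 CPM, all outside the lymphoid range, 2 above and 1 below, and its log2 fold change of 0.28 ± 0.20 did not pass.

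Ccng1, a p53 target that encodes cyclin G1, a partner of a phosphatase acting on Mdm2, fell in the gut wall and passed the test in no other source. LPL Treg had 185, 159 and 160.0 CPM and IEL Treg 205, 199.8 and 189 CPM, whereas the lymphoid libraries ran from 233 to 344 CPM with a median of 275 CPM. Neither gut compartment overlapped the lymphoid range. The log2 fold change was -0.73 ± 0.15 in LPL (edgeR adjusted p = 0.000967) and -0.50 ± 0.15 in IEL (0.0195), the latter lost against blood or spleen alone, without the filter on low counts, and without any 1 of the 3 IEL libraries. Kidney Treg lay on the other side, with 307, 405 and 336 CPM, overlapping the lymphoid range (0.30 ± 0.14, adjusted p = 0.163). Peyer's patch Treg, at 215, 208 and 226 CPM, did not overlap the lymphoid range, and the change of -0.41 ± 0.15 did not pass (adjusted p = 0.149), though it did in DESeq2 (-0.43, adjusted p = 0.0469).

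Sesn1 encodes a sestrin, a stress protein that restrains the growth kinase mTORC1, and it was lower in 4 of the 5 sources with high Cdkn1a. The blood libraries were the highest, at 361, 339 and 369.8 CPM, followed by liver at 321, 290.2 and 279 CPM. Spleen had 227, 191 and 189 CPM and lymph node 183, 169 and 157 CPM. The 3 reference sources therefore differed among themselves, and blood shared its high level with liver. Blood and liver Treg were also high in Gm26917, whose part here was not tested. Kidney Treg had 105, 148 and 125 CPM, pancreas 111, 139.8 and 91.7 CPM, IEL 95.5, 100.3 and 114 CPM, and LPL 98.8, 89.2 and 125 CPM. All 12 of these libraries were below the lowest lymphoid library. Lung Treg did not follow, with 264 CPM in replicate 1 against 151 and 118 CPM in the others.

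Against the lymphoid mean, Sesn1 fell by a log2 fold change of -1.14 ± 0.21 in IEL, -1.11 ± 0.21 in LPL, -1.02 ± 0.21 in pancreas and -0.86 ± 0.20 in kidney (edgeR adjusted p = 0.000309, 0.000279, 0.0021 and 0.00509). In lung the change was -0.34 ± 0.20 (0.287), and without lung replicate 1 it was -0.78 (0.0101). The choice of reference mattered for kidney and pancreas. Against lymph node alone the kidney value was -0.42 (adjusted p = 0.246) and the pancreas value -0.58 (0.143), and against spleen alone they were -0.69 (0.0886) and -0.84 (0.0632). Liver and Peyer's patch did not pass, at 0.36 ± 0.19 (0.457) and -0.34 ± 0.20 (0.423). Peyer's patch replicate 1, the library with the highest Cdkn1a level of that source, had 116 CPM of Sesn1 against 213 and 224 CPM in the others.

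Trp53inp1, an antiproliferative stress gene induced by p53, showed no called difference between sources. Kidney Treg had 421, 609 and 637 CPM and lung Treg 736, 495 and 506 CPM, within or above a lymphoid range of 247 to 553 CPM with a median of 439.8 CPM. The log2 fold change was 0.44 ± 0.21 in kidney (edgeR adjusted p = 0.151) and 0.53 ± 0.21 in lung (0.0925). Without replicate 1 of kidney and of lung, the kidney value was 0.63 and passed (adjusted p = 0.0431). In LPL the change was 0.48 ± 0.21 (0.087), and in IEL 0.30 ± 0.21 (0.349).

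Phlda3, a p53 target that competes with Akt for membrane lipids, was counted sparsely, with 7 to 404 reads per library. Lymph node Treg had 13.6, 7.79 and 19.97 CPM and lung Treg 1.66, 15.2 and 15.0 CPM, the low value again being replicate 1. LPL Treg had 3.05, 0.786 and 1.57 CPM and IEL Treg 2.31, 1.64 and 3.04 CPM, which overlapped the blood libraries at 2.93, 1.995 and 4.72 CPM. The log2 fold change in LPL was -1.74 ± 0.66 (edgeR adjusted p = 0.0498), at the edge of the threshold. It was lost against blood or spleen alone and without the filter on low counts. It was also lost without any 1 of blood replicates 2 and 5, lymph node replicates 7 and 10, spleen replicates 2 and 4, and LPL replicates 2 and 3 (adjusted p from 0.056 to 0.211). No other source passed.

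**Figure D2:**
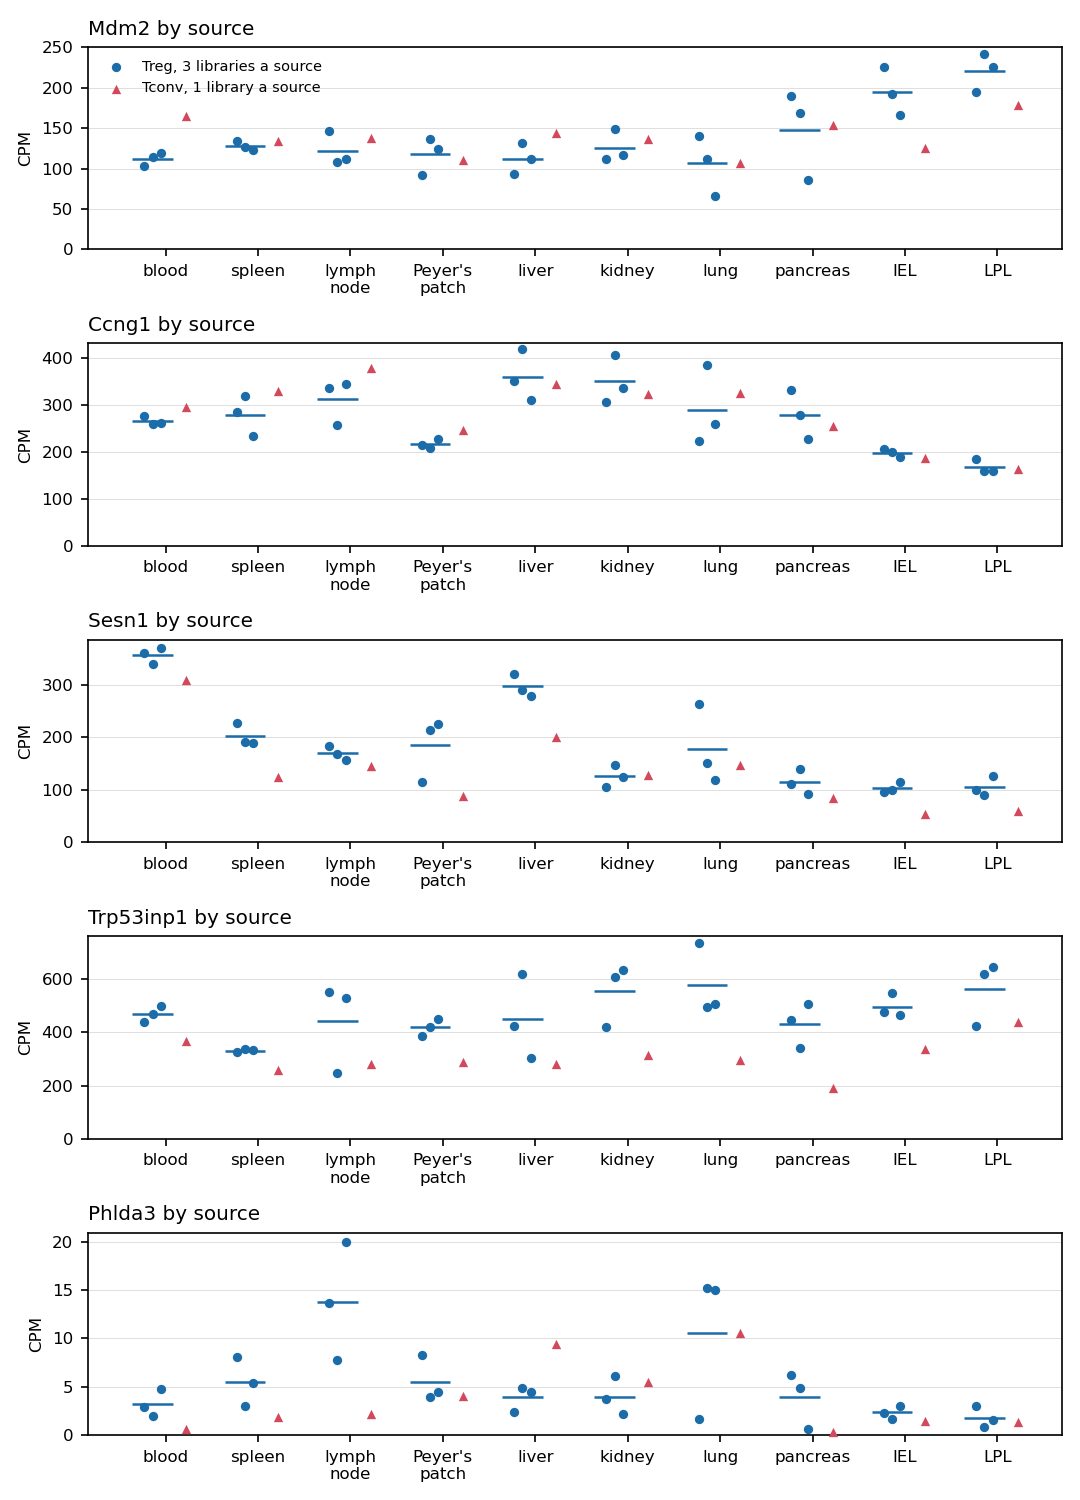
Level in CPM of Mdm2, Ccng1, Sesn1, Trp53inp1 and Phlda3 in each library by source, with Treg as circles, their mean as a bar and the single Tconv library as a triangle. Mdm2 is above and Ccng1 below the lymphoid libraries in IEL and LPL, Sesn1 is highest in blood and liver, and 4 of the 6 kidney and lung Treg libraries lie within the lymphoid range of Mdm2.

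Over the mean of all 6 tissues against lymphoid Treg, 1 of the 5 other members passed, against 21.8% of genes called, 11.9% higher and 9.98% lower. It was Sesn1 (log2 fold change -0.68 ± 0.12, edgeR adjusted p = 0.000143), with 154 ± 76.9 CPM (SD, n = 18) in tissue and 243 ± 87.7 CPM (n = 9) in lymphoid Treg. This call was lost against spleen alone (-0.51, adjusted p = 0.0712) and lymph node alone (-0.24, 0.399). Mdm2 stood at 0.28 ± 0.12 (0.105) and passed without pancreas Treg replicate 6 (0.33, 0.0326). Trp53inp1 had 0.32 ± 0.13 (0.0789), Ccng1 -0.10 ± 0.09 (0.503) and Phlda3 -0.73 ± 0.35 (0.146). Cdkn1a (5.397 ± 0.52) and Trp53inp2 (3.83 ± 0.38) carry no test here, since kidney and lung, on which they were chosen, are among the 6 tissues.

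The message of p53 itself was lower in part of the same sources. Trp53 had 166, 135 and 123 CPM in kidney Treg and 220.5 ± 36.6 CPM (SD, n = 9) in lymphoid Treg. It fell by a log2 fold change of -0.62 ± 0.13 in kidney (edgeR adjusted p = 0.00182) and -0.65 ± 0.13 in IEL (0.000697), and over all tissues by -0.34 ± 0.08 (0.0018). In lung it had 172, 174 and 166 CPM and did not pass (-0.32 ± 0.13, 0.098). Of the 13 genes listed as regulators of p53, 0 rose and 1 fell in kidney, namely Trp53, and none passed in lung, counts near the shares over all genes. Leaving out replicate 1 of kidney and of lung, 2 rose and 2 fell in kidney, and 0 rose and 2 fell in lung. In LPL 3 rose and 1 fell, again near the 17.4% and 9.7% of all genes. Among them was Mdm4, the Mdm2 relative that binds and inhibits p53 (0.97 ± 0.20, adjusted p = 0.000609), which also rose in IEL (0.75 ± 0.20, 0.008). Atm, the DNA damage kinase upstream of p53, fell in LPL (-0.84 ± 0.31, 0.048).

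A wider set of 39 p53 target genes in 4 lists (growth arrest, cell death, repair and metabolism, and feedback) had 37 genes tested. In kidney Treg 11 rose and 0 fell, with a median log2 fold change of 0.36 beside 0.04 over all genes tested. In lung 7 rose and 2 fell (median 0.41, all genes 0.05), in pancreas 8 and 2 (0.35, all genes 0.05), in IEL 10 and 2 (0.62, all genes 0.11) and in LPL 12 and 3 (0.44, all genes 0.07). Among all genes tested, 12.2% rose and 4.26% fell in kidney, 8.64% rose and 2.85% fell in lung, and 7.64% rose and 2.31% fell in pancreas. The shares were 13.5% and 7.77% in IEL, 17.4% and 9.7% in LPL, and 11.9% and 9.98% over all 6 tissues. None of the 37 listed genes passed in liver. In Peyer's patch 5 rose, where 2.94% of all genes did, and 0 without its replicate 1, where 1.31% of genes rose. Without replicate 1 of kidney and of lung, the split was 11 and 1 in kidney (median 0.43) and 6 and 4 in lung (0.16). Over all 6 tissues 13 rose and 3 fell with a median of 0.51, and without these libraries 15 and 3. The lists were written with earlier results of these data known and are described by counts alone. Gdf15, a stress cytokine gene of the repair list, had no count in any lymphoid Treg library and is given no fold. With Gdf15 held at the bound that 3 counts over the lymphoid group allow, the medians in kidney, lung, pancreas, IEL and LPL were the same.

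Of the growth arrest genes, 5 of 9 tested rose in kidney and 0 fell, with a list median of 1.32. Plk2 and Plk3, polo-like kinases induced by p53 and by growth factors, stood at 97.7 ± 5.77 and 208 ± 121 CPM (SD, n = 3) in kidney against 0.885 ± 0.997 and 37.4 ± 19.97 CPM (n = 9) in lymphoid Treg. Their log2 fold changes were 7.02 ± 0.98 and 2.72 ± 0.32 (edgeR adjusted p = 2.41e-05 and 2.07e-06). Btg2, an antiproliferative gene, had 1111 ± 148 against 375 ± 78.4 CPM (1.58 ± 0.28, 0.000332), and Gadd45a, a damage response gene, 25.0 ± 4.97 against 5.98 ± 1.80 CPM (2.11 ± 0.46, 0.00275). In lung Plk2 (4.48 ± 0.94, 0.00352), Gadd45a (1.77 ± 0.47, 0.015) and Btg2 (0.91 ± 0.29, 0.0414) passed. Plk2 in lung had a mean of 16.2 CPM with an SD of 25.8, larger than the mean, and Plk3 did not pass there. Without replicate 1 of kidney and of lung, 0 growth arrest genes rose and 1 fell in lung, where Plk2 stood at 0.81 (adjusted p = 0.698), Btg2 at 0.16 (0.802) and Gadd45a at -0.41 (0.542). In kidney 5 rose and 0 fell.

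Cell death genes split within their list. In kidney 4 of 12 tested rose and 0 fell, at a list median of 0.11. Pmaip1, which encodes the BH3-only protein Noxa, stood at 296 ± 165 CPM in kidney and 194 ± 35.6 CPM in LPL against 15.5 ± 6.17 CPM in lymphoid Treg (log2 fold change 4.29 ± 0.44 and 3.70 ± 0.43, edgeR adjusted p = 2.82e-07 and 9.29e-07). Tnfrsf10b, a death receptor for TRAIL, had 29.95 ± 13.8 CPM in kidney against 2.58 ± 1.12 CPM (3.58 ± 0.46, 6.12e-06), and Perp, a membrane protein of the p53 death program, 13.9 ± 5.31 against 0.634 ± 1.18 CPM (5.86 ± 0.86, 3.7e-05). In lung all 3 passed as well, Perp with 22.5 ± 3.09 CPM (6.59 ± 0.87, 3.63e-05). Without replicate 1 of kidney and of lung, Perp (6.51, adjusted p = 7.44e-05) and Pmaip1 (1.46, 0.0296) passed in lung, and Tnfrsf10b did not (0.69, 0.277). Apaf1, the apoptosome scaffold, rose in kidney (0.71 ± 0.20), IEL (1.04 ± 0.19) and LPL (1.48 ± 0.19). Bax and Bbc3, named here after their values were seen because they are classical mitochondrial effectors of p53, did not pass in kidney (0.14 and 0.20). Rps27l, a ribosomal protein gene induced by p53, fell in IEL (-2.10 ± 0.33, 6.18e-05) and in LPL.

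Of the repair and metabolism genes, 2 of 12 rose in kidney, near the 12.2% of all genes. Sesn2, the stress-induced relative of Sesn1, was higher there, with 50.5 ± 21.8 against 22.4 ± 7.44 CPM (log2 fold change 1.19 ± 0.35, edgeR adjusted p = 0.0198), and it rose in LPL by 1.65 ± 0.34 (0.000767). The pair of sestrins thus had opposite signs in the same kidney and LPL libraries. Polk, a translesion DNA polymerase, rose in IEL (1.18 ± 0.27, 0.00236) and LPL (1.44 ± 0.26, 0.00024), and Xpc, a damage sensor of nucleotide excision repair, fell in lung (-1.04 ± 0.24, 0.00624). Among the 4 feedback genes, none passed in kidney. Ppm1d, the phosphatase that shuts off p53 signalling, rose in IEL (1.15 ± 0.25, 0.00178) and LPL (1.42 ± 0.25, 0.000138), the sources in which Mdm2 rose.

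**Figure D3:**
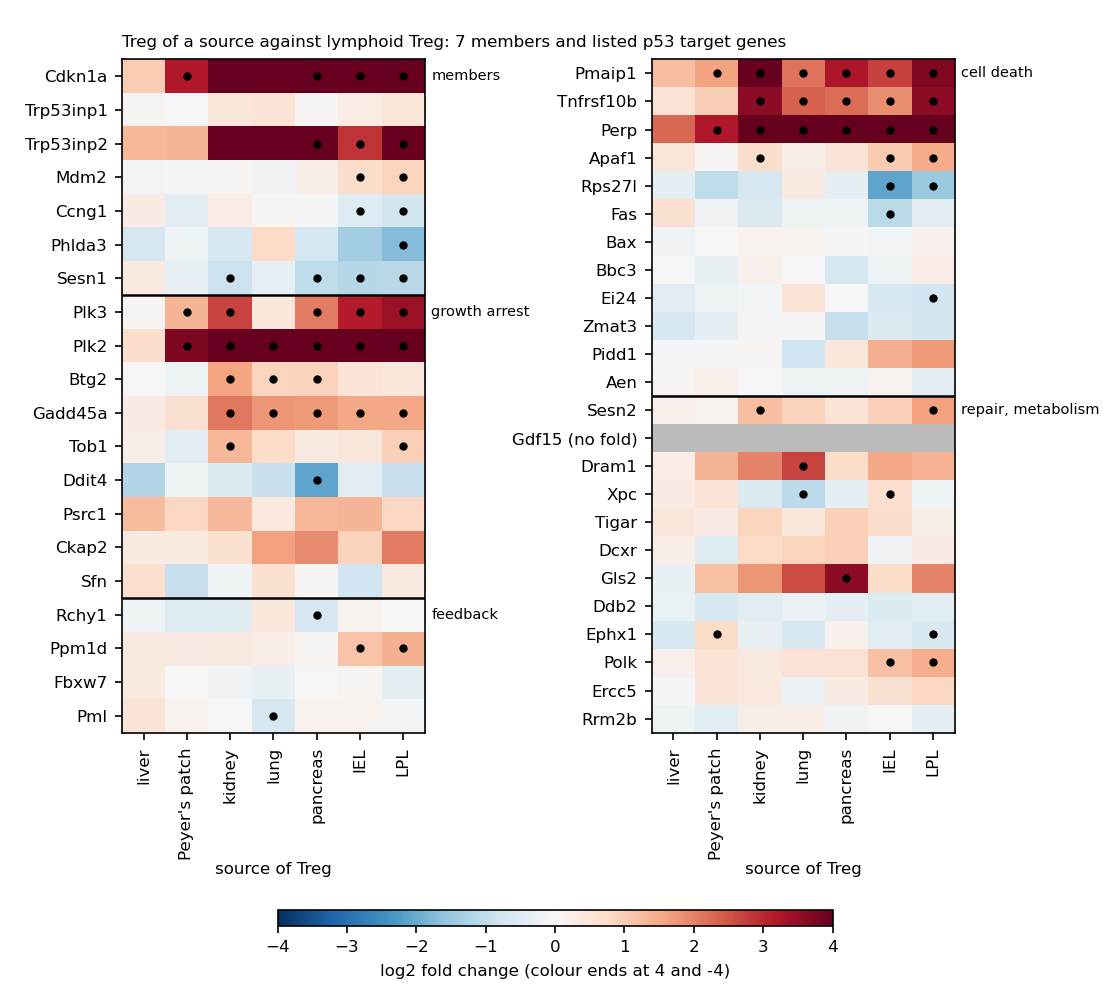
Log2 fold change of the 7 members and of 37 listed p53 target genes in Treg of 7 sources against lymphoid Treg, with red for higher, blue for lower, and colour ending at 4 and -4. Black dots mark an adjusted p below 0.05 and are not drawn for Cdkn1a and Trp53inp2 in kidney and lung, which chose them, and Gdf15 is left grey since it is at 0 in lymphoid Treg; the few dark red genes lie among many pale ones in each list.

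Markers of other cells were higher in the same organs. The shares of all genes that rose were 12.2% in kidney, 8.64% in lung, 13.5% in IEL and 17.4% in LPL. In kidney Treg 6 of 7 tested kidney tubule markers rose, and the list took 0.240% of counts in replicate 1, 0.00447 and 0.00328% in the others, and 0.000293 to 0.000909% in lymphoid Treg. Myeloid markers took 0.00573 to 0.0434% in kidney, 0.00132 to 0.171% in lung and 0.000504 to 0.00471% in lymphoid Treg, with 9 and 6 of 14 tested higher. Kidney replicate 1, the lowest there for Cdkn1a, had the most tubule and the least myeloid RNA of the kidney libraries, and lung replicate 1, the highest there for Cdkn1a, had the least myeloid RNA of lung. Of 9 endothelial markers 7 rose in kidney and 3 in lung, with Kdr at 13.5 CPM in kidney against 0.0993 CPM in lymphoid Treg (edgeR adjusted p = 0.000747). The endothelial list took 0.0101 to 0.0217% of counts in kidney, 0.0054 to 0.0306% in lung and 0.00654 to 0.0285% in lymphoid Treg. Its gene Pecam1 alone stood at 183 CPM in lymphoid Treg and weighs on these shares. The mean log2(CPM + 1) of the list was 2.16 to 2.84 in kidney, 0.946 to 2.27 in lung and 0.677 to 1.23 in lymphoid Treg. Of 6 stromal markers tested 3 rose in kidney and 1 in lung, of 8 hepatocyte markers 4 and 1, and of 13 acinar markers 6 and 0. In lung 4 of 5 tested epithelial markers rose, at 0.0447 to 0.0667% of counts, while LPL Treg replicate 3 had 0.0485%. The mean log2(CPM + 1) of this list was 1.34 in lung replicate 1 and 4.61 and 3.78 in replicates 5 and 6. In lymphoid Treg it was 0.801 to 1.14, so lung replicate 1 lay close to the lymphoid libraries. Acinar markers took 2.57 to 11.5% of counts in pancreas Treg, the highest being replicate 6, which also had the highest Cdkn1a and Trp53inp2 levels and the lowest Mdm2 level of that organ. All 11 intestinal epithelial markers rose in IEL and LPL, at 0.00664 to 0.0798% and 0.00848 to 0.157%. Of the listed markers, none of the 11 tubule genes was at 0 in all kidney Treg libraries, none of the 9 lung epithelial genes in lung, none of the 13 acinar genes in pancreas, and of the 15 myeloid genes Ly6g was in kidney. The part of these cells in the results was not tested.

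Many genes of the immediate early response, which cells induce quickly on stimulation, rose in the sources where Cdkn1a was high. Of 20 listed, 17 rose in kidney, pancreas and LPL, 16 in IEL, 13 in lung and in Peyer's patch, and 1 in liver. Over all genes 12.2% rose in kidney, 7.64% in pancreas, 17.4% in LPL and 13.5% in IEL. In lung 8.64% of all genes rose and in Peyer's patch 2.94%, and 1.12% passed in either direction in liver. The mean log2(CPM + 1) of the 20 genes was 7.66 in lung Treg replicate 1 and 5.47 and 5.66 in the other lung libraries, and 7.34 in Peyer's patch replicate 1 and 5.90 and 5.91 in the others. Without replicate 1 of kidney and of lung, 5 of the 20 rose in lung and 17 in kidney, and without replicate 1 of Peyer's patch 3 rose there. Kidney replicate 1 had 8.001 against 9.04 and 9.10. In each of these 3 sources the library that stood apart for Cdkn1a stood apart on the same side for the early response genes. Pancreas went the other way, as replicate 6, the highest there for Cdkn1a, had the lowest mean (7.78 against 8.01 and 8.53). Lung replicates 5 and 6 lay near the means of spleen and lymph node Treg (5.30 to 5.54), whose Cdkn1a levels were far lower. Blood, at 4.25 to 4.35, and liver, at 5.08 to 5.28, were low for both. Over the 30 Treg libraries Pearson's r with this mean was 0.88 for Cdkn1a, 0.83 for Trp53inp2 and -0.75 for Sesn1, and after removing the source means 0.80, 0.70 and 0.32. For a list of 9 heat shock genes the values were 0.49, 0.52 and -0.29, and 0.73, 0.56 and -0.27 after removing the source means. These are descriptions over libraries that share sources, and the part of the early response or of heat shock genes in the Cdkn1a and Trp53inp2 levels was not tested. Of 9 heat shock genes, 6 rose in kidney, with Hspa1a at 1370.3 ± 984 against 0.833 ± 0.782 CPM, and 0 in lung.

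**Figure D4:**
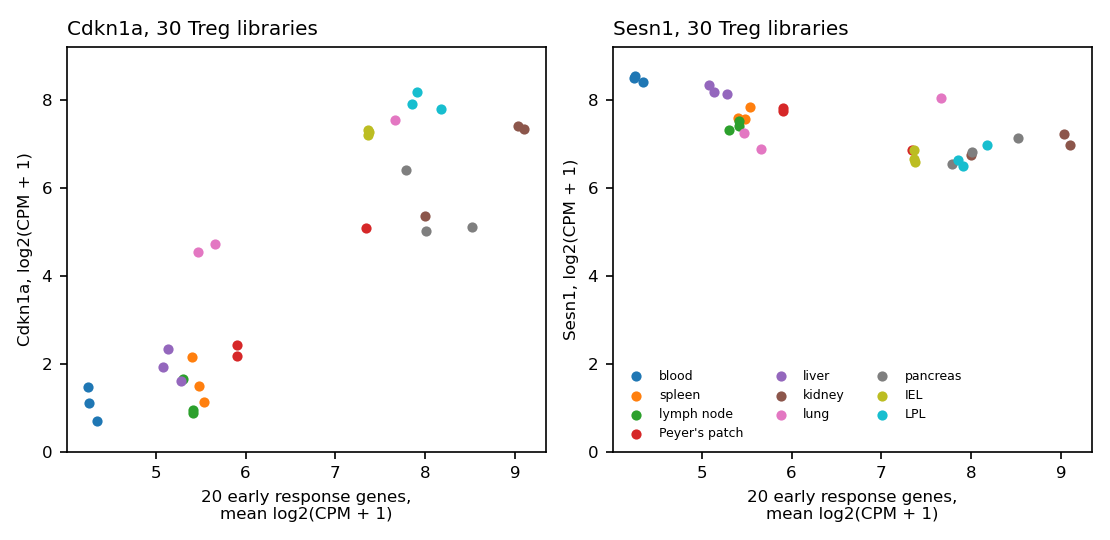
Level of Cdkn1a (left) and Sesn1 (right) as log2(CPM + 1) against the mean log2(CPM + 1) of 20 early response genes in 30 Treg libraries, coloured by source. Cdkn1a is low in the libraries left of 6 except for 2 lung libraries, and Sesn1 is highest in blood and liver, which lie furthest left.

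The 5 genes most like each of the 2 leading members over 30 Treg libraries were taken by Pearson's r of log2(CPM + 1) among 17909 genes. None is in the p53 lists, but 5 ranks out of 17909 are too few to show whether those lists follow. For Cdkn1a they were the phosphatase gene Dusp5 (r = 0.95), Mir22hg (0.95), the AP-1 gene Junb (0.95), the transporter gene Slc16a6 (0.94) and the AP-1 gene Fosl2 (0.94). For Trp53inp2 they were the small GTPase gene Gem (0.93), the G protein regulator gene Rgs2 (0.92), Irf2bp2 (0.92), the autophagy gene Map1lc3a (0.92) and the cyclic AMP responsive gene Crem (0.91). Cdkn1a and Trp53inp2 correlated with each other at 0.85, and at 0.81 after removing source means. Both were chosen for being high in kidney and lung Treg, which are among these libraries. Part of the 0.85 is therefore built in by the choice, unlike the values with Mdm2 and Sesn1 as partners, which were not chosen on values. Cdkn1a and Mdm2 correlated at 0.50, and at -0.05 after removing source means. For Cdkn1a and Sesn1 the values were -0.75 and 0.0082.

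Other genes around the function of each leading member were read from fixed lists. Among the 5 other inhibitors of cyclin-dependent kinases tested, Cdkn2b, which encodes p15, rose in kidney (log2 fold change 3.97 ± 1.06, edgeR adjusted p = 0.0117) and LPL (4.28 ± 1.07, 0.00396) at levels of 5.25 ± 3.42 and 6.23 ± 7.96 CPM. Cdkn1c, which encodes p57, rose in lung (2.23 ± 0.53, 0.00755), a call lost without replicate 1 of kidney and of lung (0.74, 0.397). Cdkn1b, which encodes p27, did not pass in kidney, lung, pancreas, IEL or LPL. Of 21 cell cycle genes, 3 rose in kidney, 7 in lung, 12 in pancreas, 6 in IEL and 15 in LPL, and 0 fell in these 5 sources, where 12.2, 8.64, 7.64, 13.5 and 17.4% of all genes rose. The kidney share is near that over all genes, and without replicate 1 of kidney and of lung 8 rose in kidney and 10 in lung. More of all genes passed in lung without these libraries as well. Among them Rrm2, the ribonucleotide reductase subunit of S phase, rose by 2.04 ± 0.31 in LPL (2.78e-05). Around Trp53inp2, 9 of 19 autophagy genes rose in kidney and 8 in lung, beside 12.2 and 8.64% of all genes. Map1lc3a, an LC3 protein of the autophagosome membrane, stood at 49.0 ± 21.8 CPM in kidney and 44.1 ± 37.5 CPM in lung against 4.79 ± 1.59 CPM in lymphoid Treg (3.38 ± 0.37 and 3.27 ± 0.37, edgeR adjusted p = 5.37e-07 and 6.47e-06). In lung 7 autophagy genes rose and 3 fell without replicate 1 of kidney and of lung, and Map1lc3a passed there at 2.25 (adjusted p = 8.42e-05).

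In Tconv too, Cdkn1a was higher in the tissues than in blood, spleen and lymph node. The Tconv library lay below all 3 Treg libraries in 4 of 10 sources, IEL and pancreas among them. It lay within their range in 6 and above it in 0. Peyer's patch Tconv had 7.16 CPM. Kidney Tconv had 158 CPM, LPL 248, IEL 64.5, lung 23.1, pancreas 13.3 and liver 2.76 CPM, and blood, spleen and lymph node Tconv had 0, 1.22 and 0.214 CPM. The blood library at 0 allows up to 0.139 CPM, which 3 counts stand for there. No tissue Tconv library overlapped the lymphoid ones. In an exact permutation test, two-sided, of mean log2(CPM + 1), the difference of 4.80 between 6 tissue and 3 lymphoid Tconv libraries had p = 0.0238, the smallest this design allows, or 0.0476 adjusted over the 2 genes tested. In edgeR the log2 fold change was 7.52 ± 1.88 with an adjusted p of 0.159, in a comparison where 0.0% of 14453 genes were called, that is 0 genes, with 2119 at an unadjusted p below 0.05 and 1079 called by DESeq2. DESeq2 called Cdkn1a at an adjusted p of 4.1e-05.

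Trp53inp2 was high in kidney Tconv and low in lung Tconv. Lung Tconv had 1.77 CPM, below every lung Treg library, whereas kidney Tconv, at 69.9 CPM, lay within the kidney Treg range. LPL Tconv had 40.6 CPM, pancreas 17.2, IEL 13.3 and liver 5.15 CPM, and blood, spleen and lymph node 1.84, 0.529 and 3.53 CPM. The exact permutation p was 0.0714, two-sided (adjusted over 2 genes 0.0714), for a difference of 2.51 on the same scale. The edgeR value was 3.63 ± 1.15 (adjusted p = 0.197), with DESeq2 at 0.0024. None of the 7 members passed in edgeR over all tissues, nor in kidney and lung Tconv against lymphoid Tconv, where 0.00716% of genes, a single gene, were called, with 1338 at an unadjusted p below 0.05 and 584 called by DESeq2. The interaction of tissue with cell type, which compares the effect in Treg with that in Tconv, passed for 0 of the 5 other members, where 0.884% of genes were called.

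Treg as a whole differed from Tconv of the same sources in 2 of the 5 members not chosen on values, both higher in Treg. Over all genes 14.9% were called, 8.17% higher and 6.73% lower. Trp53inp1 had 474 ± 115 CPM (SD, n = 30) in Treg and 306 ± 65.9 CPM (n = 10) in Tconv, higher on the log2 scale by 0.61 ± 0.11 (edgeR adjusted p = 0.000175). Its Tconv library lay below all 3 Treg libraries in 8 of 10 sources and within their range in 2. Sesn1 was higher by 0.48 ± 0.11 (0.00244), again with the Tconv library below all 3 Treg libraries in 8 of 10 sources. IEL Tconv had 53.7 CPM and LPL Tconv 60.1 CPM of Sesn1, the lowest of all 40 libraries, and blood Tconv 309.8 CPM. So the low gut and high blood levels of Sesn1 were found in both cell types. Mdm2 (-0.07 ± 0.11, 0.758), Ccng1 (-0.08 ± 0.07, 0.525) and Phlda3 (0.63 ± 0.40, 0.34) did not pass. Cdkn1a (0.90 ± 0.38) and Trp53inp2 (0.03 ± 0.34) carry no test here, since the kidney and lung Treg libraries that chose them are among the 30. Among the wider p53 lists 6 of 37 were higher and 2 lower in Treg. They included Fas, the death receptor (1.06 ± 0.15, adjusted p = 2.7e-06), and Ephx1, an epoxide hydrolase (1.30 ± 0.15, 4.66e-08).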

How the data were processed

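RNA of 2000 sorted cells per library was prepared with RNeasy and Lexogen QuantSeq 3′ kits, per the labels' protocols. The authors deposited 1 table of raw read counts per gene for all 40 libraries. Per the submitters' processing notes, FastQC, MultiQC, Trim Galore, STAR, featureCounts, DESeq and DESeq2 were used with build mm10. Versions, the annotation release and the strand setting are not given in the sources used here. Symbols were matched for 54587 identifiers with their version and 567 without it, and 267 had none. Total counts were 12197980 to 28823493 per library. The upper limit that a count of 0 allows rests on 3 counts and covers counting error only.

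Counts were tested as deposited with edgeR 4.0.16 in R 4.3.3 (filterByExpr, TMM, quasi-likelihood F test), and p-values were adjusted by Benjamini-Hochberg over all genes tested, at a threshold of 0.05. A pseudocount of 1 was used for log2(CPM + 1), and ± after a log2 fold change is its standard error. Alternatives were DESeq2 1.42.0, its size factors in edgeR, no filter on low counts, the replicate number as a block, blood, spleen or lymph node Treg alone as the reference, and leaving out each library. The fits were tested on simulated data. Python 3.11.15, pandas 2.3.3, scipy 1.17.1 and matplotlib 3.10.9 served for the rest.

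The members and all 23 lists, 12 of them cell markers, were chosen with earlier results of these data known. Named genes were the 7 members, up to 4 genes per list with the smallest p in a comparison, the 5 genes most like each leading member (predicted Gm and Rik names left out), Foxp3, Trp53 and Gm26917. Exceptions are named where they occur.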

Additional observations from a re-analysis of the deposited data

Results flagged for a closer look

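For 2 members the Treg sources lay on opposite sides of the lymphoid mean with every library. All 3 Ccng1 libraries were above the lymphoid mean of 285 CPM in kidney (log2 fold change 0.30) and liver (0.33), and all 3 were below it in IEL (-0.50), LPL (-0.73) and Peyer's patch (-0.41). All 3 Sesn1 libraries were above the lymphoid mean of 243 CPM in liver (0.36) and below it in kidney (-0.86), pancreas (-1.02), IEL (-1.14), LPL (-1.11) and Peyer's patch (-0.34). The differences between these sources were not tested. In the 14 groups of 4 to 10 libraries looked at, no library of a member lay beyond Dixon's limit, which chance passes in about 1 group in 20.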

How the results depend on the processing

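Of 1668 values of single members under all alternatives, 1607 kept their direction and side of the threshold, 32 lost and 17 gained significance, 12 untested values moved, and 0 reversed. The count of members called was 1 in kidney and became 0 with spleen alone or lymph node alone as reference. It was 0 in lung and 1 with blood alone, and leaving out single libraries gave 0 to 1 (1 without lung replicate 1). Counts in IEL and Peyer's patch, here and below, are over all 7 members and include Cdkn1a and Trp53inp2. The count was 5 in IEL and 3 with spleen alone, and 3 to 5 without single libraries (3 without IEL replicate 1). In Peyer's patch it was 1, 2 in DESeq2 and with blood alone, 0 with spleen alone, and 0 to 1 without single libraries (0 without replicate 1). Over all tissues it was 1, 0 with spleen alone, and 1 to 2 without single libraries (2 without pancreas replicate 6). DESeq2 called 2 members in tissue Tconv and 2 in kidney and lung Tconv, where edgeR called 0.

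An alternative chosen after seeing the data left out replicate 1 of kidney and of lung Treg together, which gave 2 members in kidney and 1 in lung.

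Replicate numbers were also used as a replicate block. Over 58 pairs of libraries with the same number the mean correlation of deviations was -0.025, from -0.47 to 0.195, against 0.005 over 347 pairs with different numbers, so the numbers were not taken to pair libraries. With the block the members called were 1 in lung, 3 in IEL, 0 in Peyer's patch and 2 over all tissues. Over all genes, the block moved the calls from 2945 to 874 in kidney, 1782 to 400 in pancreas, 3803 to 1339 in IEL, 4852 to 2075 in LPL, 200 to 7 in liver, 639 to 145 in Peyer's patch, 3911 to 1391 over all tissues, 2670 to 731 in Treg against Tconv and 203 to 113 in the difference of effects.

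Among counts of all genes, spleen alone gave 1029 in kidney, 1300 of 2058 in lung, 369 in pancreas, 1408 in IEL, 2242 in LPL, 151 in Peyer's patch and 1377 over all tissues. Blood alone gave 1587 in kidney, 2399 in IEL, 3186 in LPL, 19 in liver and 2122 over all tissues, and lymph node alone 542 in lung, 999 in pancreas and 417 in liver. DESeq2 gave 519 in liver, 1089 in Peyer's patch and 586 for the difference of effects. No filter gave 18 calls in tissue Tconv and 208 in kidney and lung Tconv. Without single libraries the counts of all genes fell to 1800 and 1597 in kidney (replicates 3 and 5), 1066 and 1011 in pancreas (1 and 5), 2473 and 2441 in IEL (2 and 3), and 351 and 407 in Peyer's patch (1 and 3), which rose to 1212 without lymph node replicate 6. They ran from 52 (without liver replicate 4) to 437 (without lymph node replicate 6) in liver. They reached 111 in tissue Tconv without pancreas and 73 in kidney and lung Tconv without lung. Lung had 3284 without replicates 1 of kidney and lung. Leaving out each library was not run for the difference of effects. The cause of these changes was not tested. With 1 Tconv library per source, the Tconv comparisons have no replicate within a source.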
